A study of Homo sapiens with 12 samples.

Results

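HOX genes encode transcription factors with a homeodomain, a fold that binds DNA, and lie in the clusters HOXA, HOXB, HOXC and HOXD. The genes analysed were those that a probe set of the array names alone as HOXA, HOXB, HOXC or HOXD with a number from 1 to 13, antisense genes left out. There were 28 such genes with 44 probe sets, among 19775 genes and 54613 probe sets tested. A gene table lists 39 HOX genes. The members were HOXA2 of 11 HOXA genes (chromosome 7), all 10 HOXB genes (chromosome 17), all 9 HOXC genes (chromosome 12) and 8 of 9 HOXD genes (chromosome 2). The other HOXA genes were not analysed here, and HOXD3 was met only on 3 probe sets that name HOXD4 and LOC401021 as well. Of the 28 genes, 13 had more than 1 probe set. Each gene was represented by its probe set with the highest mean over all arrays, and the others are described beside it.

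Transcript levels were measured on 12 Affymetrix arrays, 3 in each of 4 groups. The groups combine the lines MMS1 and RPMI8226 with either a control sponge or a miR-16 sponge. MMS1 and RPMI8226 are given as multiple myeloma cell lines, and the second is also spelled RPMI or RPMI826 in the labels, which write miR16 KO for the miR-16 sponge. A sponge is a transcript with many binding sites for a microRNA, which draws it away from its targets, so the microRNA is titrated and its gene is not deleted. In all groups, controls included, the cells carried a GFP lentivirus with either a miR-16 sponge or a mock sponge, and were sorted by flow cytometry, expanded and then cultured in parallel for about a week. The design addresses the loss of miR-16 that accompanies deletion of 13q in myeloma. Nothing in the labels gives an array a flask or a transduction of its own, so p-values measure only the spread between these arrays, which may be technical.

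HOX genes are known for setting position along the body axis of the embryo, with genes at one end of a cluster active earlier and closer to the head than genes at the other end. Genes with the same number in different clusters are paralogs. In blood formation, HOX genes are active in stem and progenitor cells and are shut down as cells mature. HOX proteins bind DNA together with cofactors of the TALE homeodomain class, chiefly PBX and MEIS proteins. Their clusters are kept silent by Polycomb complexes and kept active by MLL complexes with menin, while CDX factors and retinoic acid switch them on.

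HOX clusters also carry microRNA genes, and those of the miR-10 and miR-196 families act on HOX transcripts. Mature sequences are shown from RefSeq (GRCh38.p14) so that the microRNA titrated here can be set against some of those encoded inside the clusters. The list does not hold every microRNA gene of the clusters. Capitals mark the seed, bases 2 to 8, which pairs with targets.
hsa-miR-16-5p: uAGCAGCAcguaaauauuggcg
hsa-miR-10a-5p: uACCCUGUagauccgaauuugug
hsa-miR-196a-5p: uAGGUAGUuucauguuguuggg
hsa-miR-196b-5p: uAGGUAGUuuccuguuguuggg
miR-16 comes from MIR16-1 (chr13:50049027-50049048, minus strand) and MIR16-2 (chr3:160404754-160404775, plus strand). miR-10a comes from MIR10A in the HOXB cluster (chr17:48579904-48579926, minus strand). miR-196a comes from MIR196A1 beside HOXB9 (chr17:48632532-48632553, minus strand) and MIR196A2 in the HOXC cluster (chr12:53991762-53991783, plus strand). miR-196b comes from MIR196B in the HOXA cluster (chr7:27169528-27169549, minus strand). The miR-196 sequences share a seed with each other, and neither miR-10a nor the miR-196 sequences have the seed of miR-16.

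Values are log2 signals with a lower bound of 4, and a difference of 1 is a 2-fold change. The mean over the 12 arrays was 6.44 for the median gene, 5.52 for the lower quartile, 7.62 for the upper quartile and 8.80 for the 90th percentile. Detection calls were not used here, and probe sets differ in how well they bind, so a level places a probe set among the others of the array and does not rank transcripts by abundance. The number of arrays limits the precision, with a median standard error of 0.14 for a difference between groups. Replicate 1 of the MMS1 miR-16 sponge group stood apart in its 18S ribosomal RNA probes (mean 7.84, other arrays 9.56 to 11.1), so the HOX calls that use it are also given without it. The cell type of the labels was checked against 12 plasma cell markers. Their median level was 5.86, at percentile 34.4 of all genes, with JCHAIN at 4.20, TNFRSF17 (BCMA) at 4.46 and CD38 at 4.91, all well below the median gene. Of the 12 markers, 5 lay above the median gene, and SDC1, XBP1 and CD79A were the 3 above the upper quartile. The 10 erythroid markers measured had a median of 9.16, at percentile 92.7. For 9 epithelial markers the median percentile was 84.5, for 9 T cell markers 36.8 and for 7 myeloid markers 26.4. Most of the plasma cell markers, but not all, were thus below the median gene in arrays labelled as myeloma. Of the 10 erythroid markers 8 lay above the upper quartile, and the groups are named by their labels only.

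HOX genes stood in the middle of the array, and the highest of them were HOXB genes. Of the 28 genes, 15 lay above the median gene, 3 above the upper quartile, 0 above the 90th percentile and 5 below the lower quartile. HOXB genes ran from 4.93 to 8.26 with a median of 6.87, 3 of them above the upper quartile and 3 below the lower quartile. On single arrays this cluster's median lay 0.41 ± 0.11 above the median gene (SD, n = 12 arrays, range 0.19 to 0.57). HOXD genes had a median of 6.66, which lay 0.19 ± 0.12 above the median gene (range -0.08 to 0.32). HOXC genes had a median of 5.86, with a distance of -0.51 ± 0.07 from the median gene, and HOXA2 stood at 5.89 with a distance of -0.56 ± 0.15. When all probe sets of a gene were averaged, the distance was -0.06 for HOXC and -0.15 for HOXD, so HOXD then lay below HOXC. HOXA2 and every HOXC gene had 1 probe set, so the HOXC shift is that of the median gene it is set against. The place of a cluster relative to the median gene thus depends on which probe sets represent all the other genes as well.

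**Figure D1:**
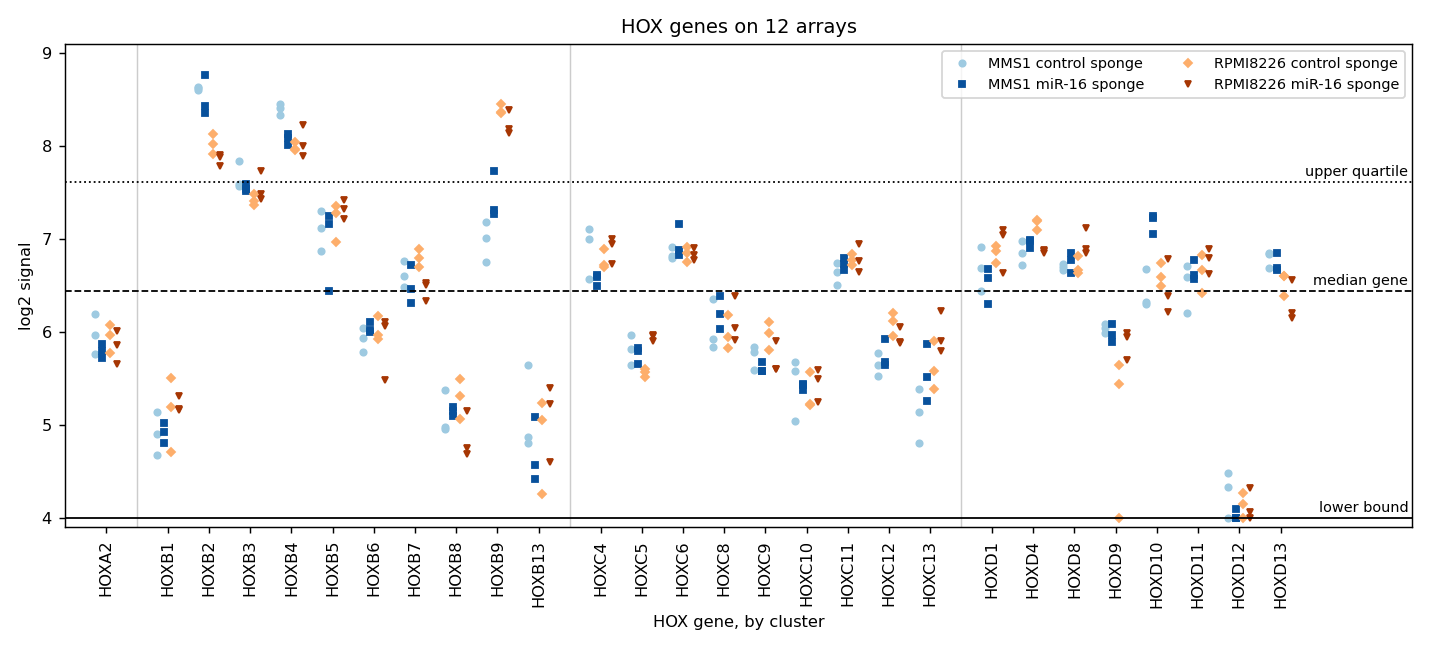
Log2 signal (vertical axis) of 28 HOX genes by cluster, 1 point per array and 4 groups of 3 arrays, with the lower bound of 4, the median gene (6.44) and the upper quartile (7.62) as horizontal lines. HOXB2 and HOXB4 lie above the upper quartile on all 12 arrays, HOXB9 is split by line, and HOXD12 lies near the bound.

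The 3 members above the upper quartile were HOXB2, HOXB4 and HOXB9. HOXB2, which patterns the hindbrain, had a mean of 8.26 ± 0.35 (SD, n = 12 arrays) at percentile 84.5. HOXB4, known for expanding blood stem cells when overexpressed, had a mean of 8.13 ± 0.19 at percentile 82.9. HOXB9, a gene of the thoracic skeleton, followed with 7.76 ± 0.63 at percentile 77.3, and its larger spread goes with a split between the lines given below. HOXB2 and HOXB4 lay above the upper quartile on 12 of 12 arrays, HOXB9 on 7 and HOXB3 on 3. HOXB3, a neighbour of HOXB2 and HOXB4 that is also active in blood progenitors, stood at 7.55 ± 0.13, and HOXB5 at 7.14 ± 0.27. In order of level, the means of HOXB2 and HOXB4 differed by less than the spread of HOXB2, and HOXB3 lay within the spread of HOXB9.

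The rest of the HOXB cluster was lower. HOXB7 stood at 6.59 and HOXB6 at 5.97, while HOXB8 (5.10), HOXB1 (5.04) and HOXB13 (4.93) lay below the lower quartile. HOXB1 acts in the hindbrain and HOXB13 is a prostate gene at the far end of the cluster. On their brightest probe sets HOXB2 to HOXB5, HOXB7 and HOXB9 thus lay above the median gene, and HOXB1, HOXB6, HOXB8 and HOXB13 below it.

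HOXC genes spanned a narrower range, from 5.41 for HOXC10 to 6.87 for HOXC6. HOXC6 was above the median gene on 12 of 12 arrays, with values of 6.82, 6.80 and 6.92 in MMS1 control, 7.16, 6.83 and 6.88 in MMS1 sponge, 6.85, 6.92 and 6.75 in RPMI8226 control and 6.77, 6.90 and 6.83 in RPMI8226 sponge. Its 4 groups overlapped. HOXC4, whose transcripts share a promoter entry with those of HOXC5, stood at 6.78 ± 0.20 and HOXC11 at 6.73 ± 0.11. HOXC8 (6.08), HOXC12 (5.86), HOXC5 (5.77), HOXC9 (5.75) and HOXC13 (5.57), the last a gene of hair and nail, lay between the lower quartile and the median gene.

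Of 8 HOXD genes, which are known for patterning the limbs, 6 lay just above the median gene on their brightest probe sets. HOXD4 led with 6.96 ± 0.15 (percentile 62.3), followed by HOXD8 at 6.78 ± 0.14, HOXD1 at 6.74, HOXD10 at 6.67, HOXD11 at 6.64 and HOXD13 at 6.59. These 6 means lay close together, and the spread of HOXD10 alone over the arrays was 0.36. On their other probe sets HOXD1 read 4.37, HOXD4 6.05, HOXD10 4.82 and 4.23, and HOXD13 5.92 and 5.66, all below the median gene. HOXD9 had a mean of 5.73 ± 0.58, and HOXD12 was the lowest HOX gene at 4.14 ± 0.17, within 0.05 of the bound on 5 of 12 arrays. The 3 probe sets that name HOXD3 together with HOXD4 and LOC401021 had means of 4.55, 4.69 and 4.71.

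HOXD8 had values of 6.67, 6.70 and 6.73 in MMS1 control, 6.64, 6.85 and 6.77 in MMS1 sponge, 6.64, 6.67 and 6.82 in RPMI8226 control and 7.12, 6.85 and 6.89 in RPMI8226 sponge. The RPMI8226 sponge arrays were the highest group, though the difference of 0.24 was not called (adjusted p = 0.346, limma with Benjamini-Hochberg adjustment). HOXA2 patterns the hindbrain and the branchial arches. It read 6.19, 5.76 and 5.97 in MMS1 control, 5.72, 5.87 and 5.80 in MMS1 sponge, 5.77, 5.97 and 6.08 in RPMI8226 control and 5.66, 5.86 and 6.01 in RPMI8226 sponge, and its groups overlapped in every comparison. Read by paralog number, the highest member came from HOXB for numbers 2, 3, 4, 5, 7 and 9, from HOXC for 6, 11 and 12, and from HOXD for 1, 8, 10 and 13. Numbers 3 and 7 had a single measured member.

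Second probe sets of a gene often sat lower. HOXB3 read 7.55 on one probe set and 5.75 on the other, HOXD1 read 6.74 and 4.37, and HOXD10 read 6.67, 4.82 and 4.23. HOXB5 read 7.14 and 7.12. A gene's place in the order above is thus that of its brightest probe set.

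In MMS1 the miR-16 sponge was accompanied by a change of 1 HOX gene, HOXD10, which rose. Of 28 genes 1 was higher and 0 were lower at an adjusted p under 0.05, against 12.4% of all genes called (4.34% higher, 8.08% lower). At an unadjusted p under 0.05 there were 5 HOX genes (17.9%), against 25.6% of all genes. The median HOX difference was -0.03 and that of all genes -0.04. Estimates ran from -0.42 for HOXB13 to 0.74 for HOXD10, and for 26 of 28 genes the 95% interval lay within a 2-fold change either way. The 3 sponge arrays all lay outside the range of the 3 control arrays for 3 HOX genes, HOXD10 and HOXB9 above and HOXB4 below, against 31.1% of all genes (12.3% above, 18.8% below).

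HOXD10 is a limb and lumbar patterning gene whose loss is known from invasive breast tumours. On its brightest probe set, 238847_at, MMS1 control arrays read 6.68, 6.32 and 6.30 and MMS1 sponge arrays 7.25, 7.23 and 7.05. All 3 sponge arrays lay above all control arrays. The difference was 0.74 (SE 0.15, 95% interval 0.41 to 1.07), a 1.67-fold rise, with an adjusted p of 0.00713 in limma with Benjamini-Hochberg adjustment. Without sponge replicate 1 it was 0.71 (adjusted p = 0.0262).

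The other probe sets of HOXD10 did not follow. On 229400_at the control arrays read 4.40, 5.02 and 4.81 and the sponge arrays 4.42, 5.05 and 4.0. On 207373_at they read 4.05, 4.25 and 4.35 against 4.08, 4.15 and 4.28. Both sit near the bound and overlap, with differences of -0.26 and -0.05 that were not called. With the mean over the 3 probe sets the difference was 0.15 (adjusted p = 0.452), so the call rests on 1 probe set. The promoter of HOXD10 is printed to show the start region of the gene that carries this call, from RefSeq (GRCh38.p14, chr2:176116528-176116827, plus strand), 250 bases before to 50 after the start, with CpG dinucleotides in capitals.
HOXD10: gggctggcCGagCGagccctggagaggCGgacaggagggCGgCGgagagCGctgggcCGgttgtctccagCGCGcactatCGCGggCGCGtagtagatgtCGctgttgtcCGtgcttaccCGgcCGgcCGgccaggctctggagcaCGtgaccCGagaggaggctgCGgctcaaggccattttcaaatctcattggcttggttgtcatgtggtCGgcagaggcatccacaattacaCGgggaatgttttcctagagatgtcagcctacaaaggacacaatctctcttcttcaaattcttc
It holds 23 CpG and has a GC content of 60%. Over the 11 members with a promoter entry the medians were 19 CpG and 58.0% GC, against 14 CpG and 58.7% over 35116 promoters. The motif TGATNNAT, a form that PBX and HOX proteins bind together, was searched on both strands. It occurred in 3 of the 11 member promoters (27.3%), those of HOXA2, HOXB1 and HOXD11, and in 7.4% of all promoters of this length, but not in this window of HOXD10. HOXC4 and HOXC5 have the same entry, so these 11 are not independent.

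**Figure D2:**
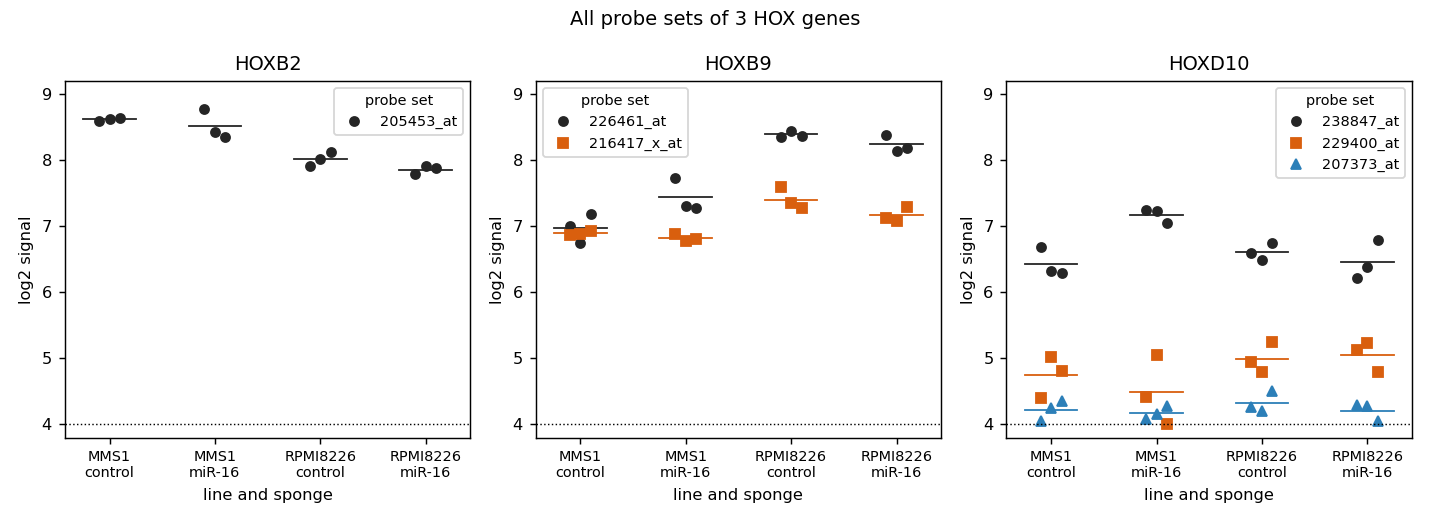
Log2 signal (vertical axis) on every probe set of HOXB2, HOXB9 and HOXD10 by line and sponge, 1 point per array, with a line at each group mean and the bound of 4 dotted. HOXB9 is higher in RPMI8226 on both of its probe sets, while HOXD10 is higher in MMS1 sponge arrays on 238847_at alone.

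HOXB9 and HOXB4 were the other members whose MMS1 groups did not overlap, and neither was called. HOXB9 read 7.01, 6.75 and 7.18 in control and 7.73, 7.31 and 7.27 in sponge arrays on 226461_at, a difference of 0.46 (SE 0.14, adjusted p = 0.0629). Without sponge replicate 1, the highest of them, it was 0.31 (adjusted p = 0.185), and its second probe set gave -0.07. HOXB4 read 8.45, 8.41 and 8.34 in control and 8.13, 8.01 and 8.09 in sponge arrays, a difference of -0.33 (SE 0.11, adjusted p = 0.0717), or -0.35 without sponge replicate 1 (adjusted p = 0.0751). Both passed in limma when only brighter probe sets were tested (adjusted p = 0.0207 and 0.0223) and with a variance trend (0.0122 and 0.0201). HOXB9 also passed with quantile normalization (adjusted p = 0.0211), and HOXB4 with the mean over probe sets (adjusted p = 0.0314). HOXC4 read 7.0, 7.11 and 6.57 in control and 6.61, 6.59 and 6.50 in sponge arrays, with control replicate 3 among the sponge values. Its difference was -0.32 (adjusted p = 0.180), and it was called without that array (adjusted p = 0.0346). In RPMI8226 it read 6.70, 6.72 and 6.89 in control and 6.73, 6.95 and 7.0 in sponge arrays, which overlap.

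The levels of several marker lists differed between the MMS1 groups alongside these values. The counts of markers that rose or fell stand against 4.34% of all genes called higher and 8.08% lower. Leaving out sponge replicate 1 removed 1 of the marker calls counted here, that of the myeloid gene ITGAM. Summed over its members, the log2 level of 9 epithelial markers ran from 70.5 to 71.1 in control and from 75.1 to 76.0 in sponge arrays. Of these markers 4 rose and 0 fell. KRT8 went from a mean of 9.30 to 11.90 and KRT18 from 11.35 to 12.45. CDH1 (7.03 and 7.01), CLDN7 (6.83 and 6.85) and ESRP1 (5.37 and 5.34) stayed close, and CLDN4 went from 5.92 to 5.66. The sum of 9 T cell markers ran from 54.0 to 54.9 and from 61.0 to 62.1. CD3D rose by 5.64, from a mean of 6.77 to 12.41, and CD7 by 0.84, while the list's median per array overlapped, from 5.68 to 5.91 in control and from 5.81 to 6.05 in sponge arrays. The sum of 10 erythroid markers ran from 96.2 to 96.7 and from 90.4 to 91.5, with 2 that rose and 4 that fell. Myeloid markers (7 measured) had overlapping sums, 39.0 to 39.4 and 38.9 to 40.0, with 1 that rose. The sum of the 12 plasma cell markers ran from 74.5 to 75.6 and from 73.0 to 75.3, with 0 called, and their JCHAIN lay near the bound. The part of these shifts in the HOX values was not tested, and fewer cells of a type cannot be told apart from less RNA per cell.

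In RPMI8226 the miR-16 sponge was accompanied by 0 called HOX genes, where 0.217% of all genes were called. At an unadjusted p under 0.05 limma gave 7 HOX genes (25%), against 14.3% of all genes, and the smallest adjusted p was 0.142. The median HOX difference was 0.03 and that of all genes -0.02. For 27 of 28 genes the 95% interval lay within a 2-fold change. Groups did not overlap for 6 HOX genes, 3 higher and 3 lower, against 24.9% of all genes (7.79% higher, 17.1% lower). They were HOXC5, HOXD8 and HOXD9 above and HOXB2, HOXB7 and HOXD4 below.

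HOXC5 had the smallest p. It read 5.52, 5.57 and 5.60 in control and 5.90, 5.97 and 5.96 in sponge arrays, a difference of 0.38 (SE 0.10). HOXD4 read 7.10, 7.19 and 7.21 in control and 6.88, 6.85 and 6.87 in sponge arrays, a difference of -0.30 (adjusted p = 0.195), and its second probe set gave -0.31. Both pairs of groups were separate, with tight replicates. HOXD10 read 6.59, 6.49 and 6.74 in control and 6.21, 6.39 and 6.79 in sponge arrays, which overlap, with a difference of -0.14 (adjusted p = 0.742).

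The size of the estimate was greatest for HOXD9, a limb patterning gene singled out here after its values were seen. Its RPMI8226 control arrays read 4.0, 5.44 and 5.64 and its sponge arrays 5.99, 5.70 and 5.95, while the 6 MMS1 arrays lay between 5.89 and 6.09. The difference was 0.85 (SE 0.30, adjusted p = 0.241). Control replicate 1, at the bound, set much of it: without that array the difference was 0.34 (adjusted p = 0.350). The second probe set of HOXD9 gave -0.17.

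**Figure D3:**
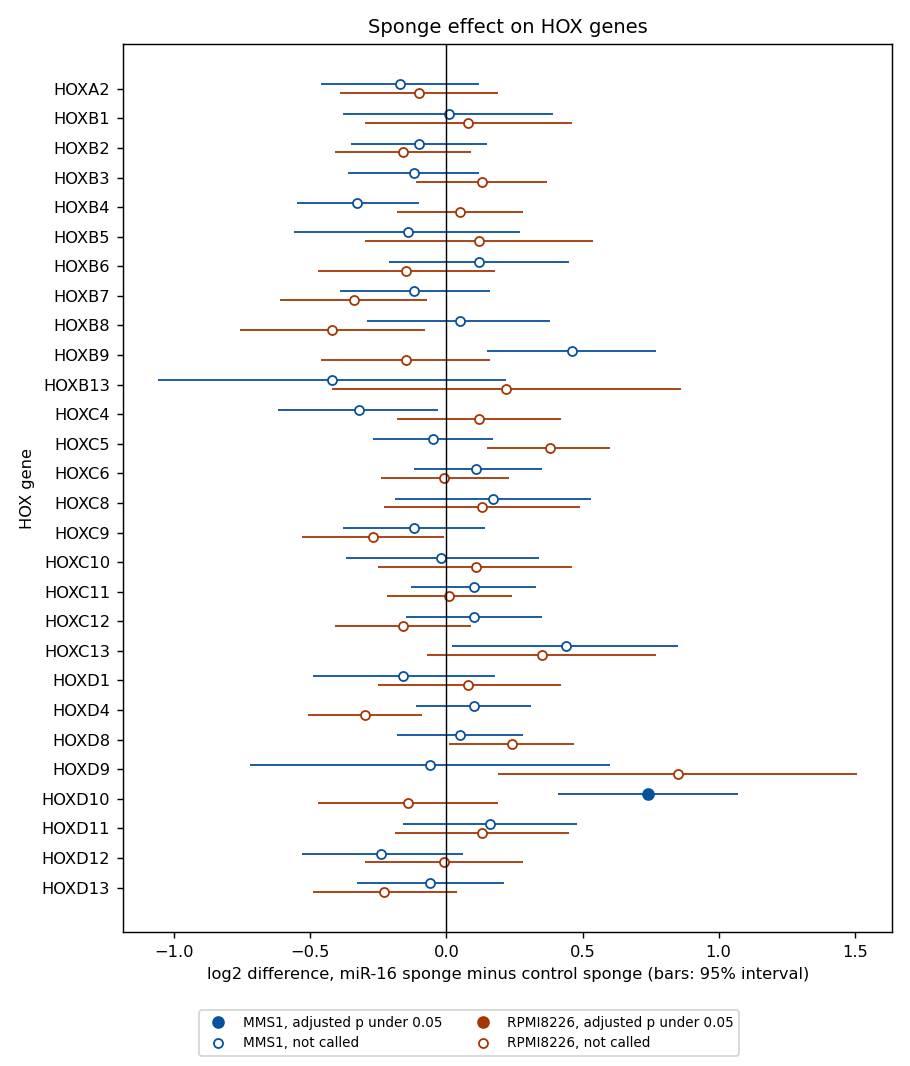
Log2 difference of miR-16 sponge minus control sponge (horizontal axis) for 28 HOX genes in MMS1 and RPMI8226, with 95% intervals from limma on 3 arrays a group and filled points for an adjusted p under 0.05. Only HOXD10 in MMS1 (0.74) is filled, and the widest intervals are those of HOXD9 and HOXB13.

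Averaged over the lines, the sponge effect called 0 of 28 HOX genes, against 8.84% of all genes, with 5 (17.9%) at an unadjusted p under 0.05 in limma against 23.1% of all genes. The smallest adjusted p was 0.113, for HOXC13, which read 5.39, 4.81 and 5.14 in MMS1 control, 5.26, 5.52 and 5.87 in MMS1 sponge, 5.39, 5.90 and 5.58 in RPMI8226 control and 5.80, 5.90 and 6.23 in RPMI8226 sponge. Sponge arrays overlapped control arrays in both lines, and the average difference was 0.39. HOXB7, a gene overexpressed in several tumours, was called in the average without MMS1 sponge replicate 1 (-0.28, adjusted p = 0.0477).

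The test of the difference between the lines' sponge effects called 1 HOX gene, HOXD10, against 5.9% of all genes. The RPMI8226 effect minus the MMS1 effect was -0.88 (SE 0.22, 95% interval -1.35 to -0.41, adjusted p = 0.0338). This call was lost without any 1 of 9 of the 12 arrays (adjusted p from 0.0503 to 0.0851). Without MMS1 sponge replicate 1 the value was -0.85 (adjusted p = 0.0691), and with the mean over the 3 probe sets it was -0.21 (adjusted p = 0.484). HOXB9 had a difference of -0.61 (adjusted p = 0.113).

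HOXB9 and HOXB2 were called between the lines with either sponge. Between the control-sponge arrays 4 of 28 HOX genes were called, HOXB9 and HOXC12 higher and HOXB2 and HOXB4 lower in RPMI8226, against 10.3% of all genes (6.52% higher, 3.8% lower). At an unadjusted p under 0.05 there were 9 HOX genes (32.1%), against 22.9% of all genes. Between the miR-16 sponge arrays 4 were called as well, HOXB9 higher and HOXB2, HOXD10 and HOXD13 lower in RPMI8226, against 20.6% of all genes (12.2% higher, 8.38% lower). Without MMS1 sponge replicate 1 HOXD13 was not called (-0.37, adjusted p = 0.0849). Groups did not overlap for 9 HOX genes in either comparison, against 32.5% and 37.2% of all genes. The arrays of the comparisons are separate, but the lines are the same. In RPMI8226 the summed markers ran from 72.8 to 74.4 for epithelial, from 54.4 to 55.5 for T cell and from 94.6 to 96.3 for erythroid genes over both sponges, and their part in the line differences was not tested.

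HOXB9 differed most. On 226461_at RPMI8226 arrays read 8.36, 8.45 and 8.37 in control and 8.39, 8.14 and 8.19 in sponge arrays, all above the MMS1 arrays given above, whose highest value was 7.73. The difference was 1.42 (SE 0.14, adjusted p = 3.7e-05), or 2.67-fold, in control arrays and 0.81 (SE 0.14, adjusted p = 0.0018), or 1.75-fold, in sponge arrays. Its second probe set, 216417_x_at, read 6.87, 6.88 and 6.93 in MMS1 control, 6.88, 6.78 and 6.81 in MMS1 sponge, 7.59, 7.35 and 7.27 in RPMI8226 control and 7.13, 7.08 and 7.29 in RPMI8226 sponge. The direction was the same with a smaller size, 0.51 (adjusted p = 0.00926) and 0.34 (adjusted p = 0.0417).

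HOXB2 went the other way. It read 8.60, 8.63 and 8.64 in MMS1 control and 8.77, 8.43 and 8.36 in MMS1 sponge, against 7.92, 8.02 and 8.13 in RPMI8226 control and 7.79, 7.91 and 7.88 in RPMI8226 sponge. All 6 MMS1 arrays lay above all 6 RPMI8226 arrays. The difference was -0.60 (SE 0.12, adjusted p = 0.00547) in control and -0.66 (SE 0.12, adjusted p = 0.00156) in sponge arrays, 1.52-fold and 1.58-fold lower in RPMI8226. Without MMS1 sponge replicate 1 the second value was -0.54 (adjusted p = 0.00334), and that of HOXB9 was 0.95 (adjusted p = 0.000673). The line calls of HOXB2 and HOXB9 held under every alternative tried.

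**Figure D4:**
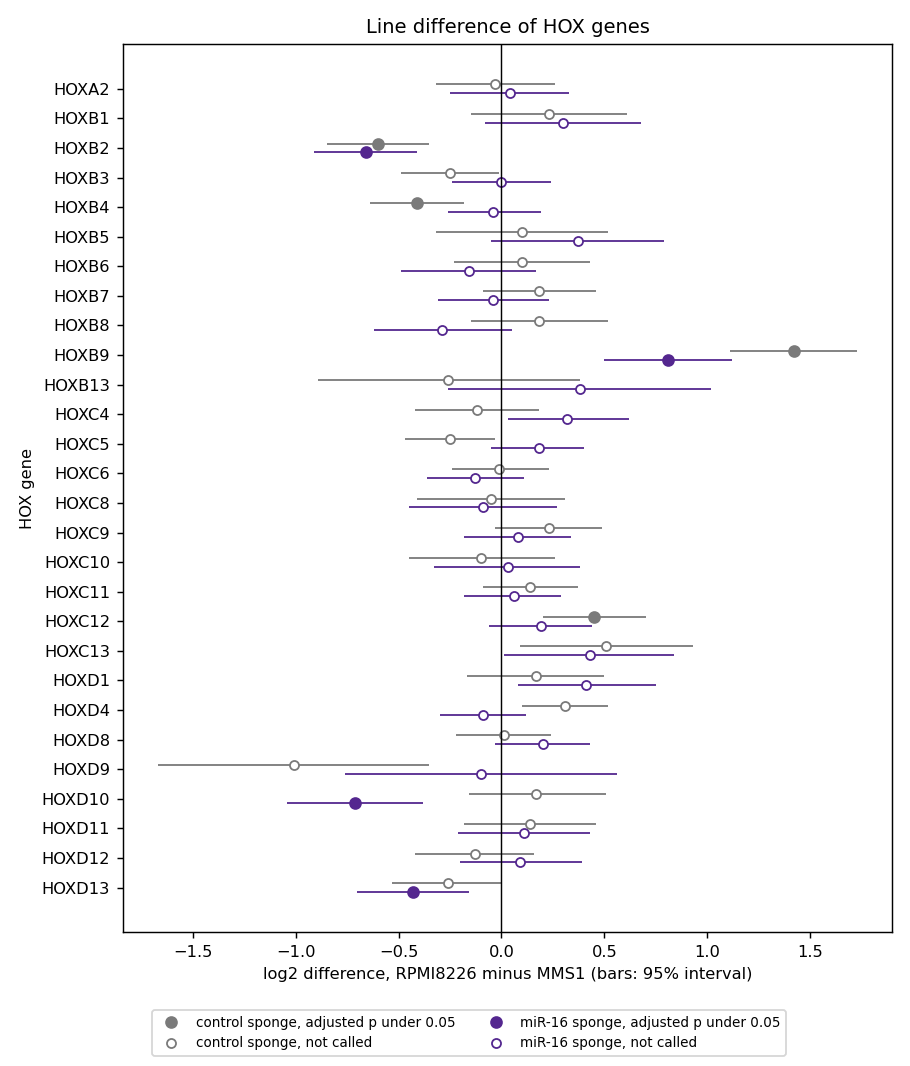
Log2 difference of RPMI8226 minus MMS1 (horizontal axis) for 28 HOX genes in control-sponge and in miR-16 sponge arrays, with 95% intervals from limma on 3 arrays a group and filled points for an adjusted p under 0.05. HOXB9 (1.42 and 0.81) and HOXB2 (-0.60 and -0.66) are filled in both comparisons.

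The remaining genes were called between the lines in 1 of the 2 comparisons only. HOXB4 read 7.97, 8.05 and 7.96 in RPMI8226 control and 8.23, 8.0 and 7.89 in RPMI8226 sponge arrays. All RPMI8226 control arrays lay below the MMS1 control arrays, with a difference of -0.41 (SE 0.11, adjusted p = 0.0298). The sponge arrays of the lines overlapped and differed by -0.04 (adjusted p = 0.862). The control call was lost without any 1 of the 6 arrays it compares (adjusted p from 0.0581 to 0.110).

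HOXC12, near the posterior end of its cluster, read 5.64, 5.53 and 5.77 in MMS1 control, 5.64, 5.92 and 5.68 in MMS1 sponge, 5.96, 6.12 and 6.20 in RPMI8226 control and 5.89, 6.05 and 5.88 in RPMI8226 sponge. The difference was 0.45 (SE 0.12, adjusted p = 0.0302) in control arrays, whose groups were separate, and 0.19 in sponge arrays, whose groups overlapped. It was lost without replicate 1 or 2 of MMS1 control or without replicate 2 or 3 of RPMI8226 control (adjusted p from 0.0936 to 0.126).

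HOXD13, the last gene of its cluster and a gene of the digits, read 6.85, 6.69 and 6.84 in MMS1 control, 6.85, 6.69 and 6.67 in MMS1 sponge, 6.39, 6.60 and 6.60 in RPMI8226 control and 6.20, 6.56 and 6.15 in RPMI8226 sponge. RPMI8226 lay below MMS1 with both sponges. The difference was -0.26 (adjusted p = 0.265) in control and -0.43 (SE 0.12, adjusted p = 0.0288) in sponge arrays, where its other probe sets gave -0.44 and -0.37, not called. The sponge-array call was lost without replicate 1 or 2 of MMS1 sponge or replicate 1 or 3 of RPMI8226 sponge (adjusted p from 0.0528 to 0.107), and when the 6 arrays compared were fitted alone (adjusted p = 0.0874). HOXD10 differed by -0.71 (SE 0.15, adjusted p = 0.00626) in sponge arrays and by 0.17 in control arrays. In sponge arrays it differed by -0.67 without MMS1 sponge replicate 1 (adjusted p = 0.0239) and by -0.04 with the mean over its probe sets (adjusted p = 0.836).

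HOXD4 read 6.98, 6.72 and 6.85 in MMS1 control and 6.99, 6.90 and 6.98 in MMS1 sponge arrays. Its RPMI8226 control arrays, given above, lay 0.31 higher than those of MMS1 without overlap, a difference that was not called (adjusted p = 0.0674) but was called with brighter probe sets only (0.0183) and with a variance trend (0.0492). HOXD9 differed by -1.01 in control arrays (adjusted p = 0.0611), with a call without RPMI8226 control replicate 1 (-0.50, adjusted p = 0.0350) and without replicate 3 (-1.32, adjusted p = 0.0218). Its second probe set gave 0.21 in the same comparison (adjusted p = 0.719). A lower probe set of HOXB8, 221278_at, was called in sponge arrays (-0.65, adjusted p = 0.00752), with values of 5.05, 4.84 and 5.0 in MMS1 and 4.11, 4.42 and 4.41 in RPMI8226, while the brighter one gave -0.29. HOXB8 is a target of miR-196 and blocks myeloid maturation when overexpressed.

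Over the 4 groups together, limma's moderated F test called 7 of 28 HOX genes, HOXB2, HOXB4, HOXB9, HOXC12, HOXC13, HOXD10 and HOXD13, against 26.5% of all genes. Of the 44 probe sets 10 were called, against 22.4% of all probe sets.

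Genes that act with HOX genes, or lie near them, were counted from 7 lists. In RPMI8226 0 members of these lists were called at an adjusted p under 0.05 in limma, where 0.217% of all genes were called. In MMS1 4.34% of all genes were called higher and 8.08% lower. Without MMS1 sponge replicate 1 the MMS1 calls lost were those of 2 members, TGIF1 (0.30, adjusted p = 0.117) and CBX2, and 0 were gained.

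Of 10 TALE cofactor genes measured, 1 rose and 4 fell in MMS1, against 4.34% and 8.08% of all genes, with a median of -0.15 against -0.04 over all genes. PBX3, a partner of HOX proteins in leukaemia, read 6.23, 6.39 and 6.26 in control and 4.79, 4.52 and 4.67 in sponge arrays, and fell by 1.64 on the log2 scale (SE 0.12, adjusted p = 2.47e-06). In RPMI8226 it read 5.17, 5.54 and 5.48 in control and 5.37, 5.49 and 5.65 in sponge arrays. The difference between the lines' effects was 1.74 (adjusted p = 7.08e-05). MEIS2 fell by 0.47 (adjusted p = 0.01), PBX2 by 0.56 (adjusted p = 0.0176) and TGIF2 by 0.38 (adjusted p = 0.0203). The member that rose was TGIF1, a repressor of the TALE class, by 0.39 (adjusted p = 0.0439). MEIS1, the cofactor best known from blood progenitors, stood at 5.78, below the median gene, and differed by 0.13 (adjusted p = 0.805).

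The genes of cluster maintenance were counted as an MLL and a Polycomb list. Of 13 MLL and menin genes, 0 rose and 3 fell, against 4.34% and 8.08% of all genes, with a median of -0.08 for the list. MEN1, which encodes menin, fell by 0.63 (adjusted p = 0.00291) in MMS1, and differed by -0.57 in RPMI8226 without a call (adjusted p = 0.0658). Its average over the lines fell by 0.60 (adjusted p = 0.00062), and the difference between the lines' effects was 0.06 (adjusted p = 0.896). ASH2L, a core subunit of MLL complexes, fell by 0.54 (adjusted p = 0.00306) and MLLT1, an MLL fusion partner, by 0.55 (adjusted p = 0.00479). Of 21 genes measured on the Polycomb list, 3 rose and 3 fell, against 4.34% and 8.08% of all genes, with a median difference of 0.05. The list also holds KDM6A and KDM6B, histone demethylases that act against Polycomb silencing. The median level of the list was 8.16, at percentile 83.4. RING1, a ubiquitin ligase of Polycomb complexes, fell by 0.80 (adjusted p = 0.000206). EED, which reads the repressive histone mark, rose by 0.60 (adjusted p = 0.00806), and PCGF1, of a variant Polycomb complex, by 0.48 (adjusted p = 0.00831). RBBP4, a histone-binding subunit, fell by 0.48 (adjusted p = 0.0097). EZH2, the methyltransferase, ranged from 7.65 to 8.43 over the 12 arrays.

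Of 17 genes of the CDX and retinoic acid list, 3 rose and 0 fell in MMS1, against 4.34% and 8.08% of all genes, with a median of 0.13. ALDH1A1, which makes retinoic acid, read 5.16, 5.25 and 5.52 in control and 8.67, 8.14 and 8.23 in sponge arrays, a rise of 3.04 (SE 0.14, adjusted p = 1.85e-08). In RPMI8226 it lay between 7.02 and 7.25 in both groups. ALDH1A2, of the same enzyme family, rose by 1.18 (adjusted p = 9.97e-06), and CYP26A1, which degrades retinoic acid and is itself induced by it, by 0.58 (adjusted p = 0.00861). HOXB1, HOXB4 and HOXD4, known to respond to retinoic acid in the embryo, had MMS1 differences of 0.01, -0.33 and 0.10, none of them called. HOXB4 was called lower under 3 of 18 alternatives, and HOXB1 lay below the lower quartile. Any part of retinoic acid in the HOX values was not tested.

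The noncoding RNAs of the clusters stood at about the level of the HOXC genes. Of 11 measured, 0 rose and 1 fell in MMS1, against 4.34% and 8.08% of all genes, with a median difference of -0.12 and a median level of 5.95. HOXA-AS3, an antisense RNA of the HOXA cluster, read 5.43, 5.21 and 5.12 in control and 4.65, 4.90 and 4.73 in sponge arrays, and fell by 0.49 (adjusted p = 0.0164). The labels do not say whether a probe set near overlapping genes reads 1 strand only. Genes that flank the clusters stood much higher, with a median level of 8.36 at percentile 85.6 over 26 genes. Of these, 4 rose and 3 fell in MMS1, against 4.34% and 8.08% of all genes, with a median of 0.08. NFE2, a blood transcription factor near HOXC, fell by 0.84 (adjusted p = 0.000178), and SMUG1, a DNA repair gene on the same side, by 0.70 (adjusted p = 0.000646). TAX1BP1 and SNX10, near HOXA, rose by 0.56 (adjusted p = 0.00142) and 0.75 (adjusted p = 0.00151).

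Of 18 other homeobox genes of blood cells measured, 0 rose and 2 fell in MMS1, against 4.34% and 8.08% of all genes, with a median of -0.04. SATB1, a chromatin organiser of lymphoid cells, read 7.12, 7.16 and 7.25 in control and 5.29, 5.41 and 5.76 in sponge arrays, and fell by 1.69 (adjusted p = 3.14e-06), and ZEB2 fell by 0.51 (adjusted p = 0.024). HHEX, a homeobox gene of early blood and endothelium, stood at 9.78, above every HOX gene.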

How the data were processed

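The authors deposited log2 signals for each probe set on each array. The summary of probes and the scaling of arrays are not given in the sources used here. Array medians ran from 5.80 to 5.90, and no normalization was added. Per the labels, 15 µg of RNA went through a pair of amplification rounds, which favours the 3′ ends of transcripts. From 54675 probe sets 62 controls were left out. Of the whole, 41097 name 1 gene, 1801 several and 11777 none, and names were updated by identifier from the gene table of GRCh38.p14, where 42 identifiers had no match. Group means were fitted as a linear model to 12 arrays and 54613 probe sets in limma 3.58.1 (R 4.3.3; 8 residual and 4.92 prior degrees of freedom). Tests were two-sided, adjusted by Benjamini-Hochberg within each comparison, and called at an adjusted p under 0.05. The fit was tested on simulated data. Counts and figures used pandas 2.3.3 and numpy 2.4.6 under Python 3.11.15, with matplotlib 3.10.9.

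The members and lists were chosen with earlier results of these data known. Full values were given for members called in a line's sponge effect, in the difference of effects or in a line difference, and for the 2 highest members of each cluster. Other lists named up to 4 members called in either line, by smallest p. HOXD9, HOXC5, HOXC13, the second HOXB8 probe set, MEIS1, EZH2, HHEX, CBX2 and the marker genes printed were named after their values were seen. Alternatives were quantile normalization, brighter probe sets only, a variance trend, a replicate block, the arrays of 1 comparison alone, the mean over probe sets and leaving out each array. Residuals of same-numbered arrays of different groups correlated between -0.0748 and 0.0577 over 18 pairs, so no array-wide pairing by number was seen. A pairing limited to some genes was not tested. Within groups, arrays correlated at 0.974 to 0.986, and none were identical.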

Additional observations from a re-analysis of the deposited data

Results flagged for a closer look

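The sponge effect on HOXD10 differed between the lines, by the interaction test in limma: RPMI8226 minus MMS1 was -0.88 (adjusted p = 0.0338). In MMS1 the sponge arrays were higher than the control arrays in 3 of 3 cases, and in RPMI8226 the groups overlapped. The difference rests on 1 of 3 probe sets, and with their mean it was -0.21 (adjusted p = 0.484). It was not called without any 1 of 9 of the 12 arrays (adjusted p from 0.0503 to 0.0851) or with the replicate number as a block (adjusted p = 0.06).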

How the results depend on the processing

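Of 66 pairs of a named gene and a comparison, 10 were called and 0 of these changed sign under any alternative, but only 4 were called under every one. Of the 56 not called, 49 were called under none, and 11 changed sign somewhere. The distance of the median HOXC gene from the median gene moved from -0.51 to -0.06 with the mean over all probe sets, and that of HOXD from 0.19 to -0.15. As every HOXC gene had 1 probe set, the HOXC move came from the median gene alone. Without single arrays the distances from the median gene ran from 0.39 to 0.43 for HOXB, -0.52 to -0.50 for HOXC, 0.18 to 0.21 for HOXD and -0.03 to 0.01 for all HOX genes. The MMS1 count of 1 HOX gene became 2 with quantile normalization and 3 with brighter probe sets only, where 19 HOX genes were tested. It became 3 with the variance trend and ran from 1 to 2 without single arrays. Over all genes the MMS1 count rose from 2455 of 19775 to 2729 with quantile normalization and 3356 with the trend. With brighter probe sets it was 3254 of 13062 genes. With the mean over probe sets the MMS1 HOX count stayed at 1, but the gene called was HOXB4 in place of HOXD10. The RPMI8226 count was 0 under every alternative. The average count of 0 became 1 with brighter probe sets, where that of all genes went from 1748 to 2684, and 0 to 1 without single arrays. The difference count of 1 became 3 with brighter probe sets and 2 with the trend. It was 0 with the mean over probe sets and 0 to 1 without single arrays. For all genes the difference count of 1167 became 2026 with brighter probe sets, 2120 with the trend and 1441 with the mean. The line counts of 4 ran from 2 to 4 in control and from 3 to 4 in sponge arrays without single arrays. Both became 5 with brighter probe sets and with the trend. Those of all genes went from 2041 to 2795 and 2902 in control arrays, and from 4070 to 4742 and 4994 in sponge arrays. With the mean over probe sets the sponge-array count stayed at 4, with HOXB8 in place of HOXD10. The count over the 4 groups ran from 4 to 7 without single arrays.

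The replicate number taken as a block took the difference count to 0 (HOXD10 adjusted p = 0.06) and the count over the 4 groups to 4, and changed no other HOX count by over 1.5 times. Over all genes the RPMI8226 count depended on the setting: 43 genes as analysed, 570 with brighter probe sets, 794 with the trend, 16 with the replicate block and 274 without MMS1 sponge replicate 1. The cause was not tested. HOXD12 lay within 0.05 of the bound on 5 of 12 arrays, which limits what its values can show.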
